A study of Mus musculus with 21 samples.

Results

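Myotubes (MTs) of the NET39 knockdown (KD) line were set against MTs of the TMEM214 KD line, to ask what still told apart the KD lines that resembled each other most. The 3 arrays titled with NET39 shRNA and the 3 titled with TMEM214 shRNA were taken, 6 of the 21 arrays of the series. Every log2 ratio without another label is NET39 minus TMEM214, from the log2 intensities of the deposited matrix. NET39 is encoded by Plpp7 and TMEM214 by Tmem214. Both are nuclear envelope transmembrane proteins (NETs).

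All 6 cultures were C2C12, a mouse myoblast line that leaves the cell cycle and fuses into MTs when serum is reduced. Dividing myoblasts (MBs) were transduced with shRNA lentivirus, selected with puromycin as stable lines, grown past confluence and kept for 6 days in horse serum medium, with tetrodotoxin added to stop contraction. MTs were then lifted off by partial trypsinisation, which leaves most single cells on the plate. Control MTs carried a non-target shRNA by the labels, though the study's array figures describe an empty vector. They were handled in the same way, as were the TMEM38A and WFS1 KD lines. Untransduced MTs at day 6 and MBs at day 0 completed the 7 groups of 3. Each target was represented by 1 stable line, so loss of the target and other properties of its line cannot be told apart. The methods call the 3 arrays of a group biological replicates.

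Differentiating MTs assemble sarcomeres, in which myosin thick filaments slide along actin thin filaments that are anchored at the Z-disc, and they replace embryonic and perinatal myosins with adult ones as they mature. MTs also build the calcium release machinery and the acetylcholine receptors that couple nerve to contraction. Undifferentiated MBs instead make much of the matrix, its proteases and several chemokines, and NETs in muscle have been tied to the placing of such genes at the nuclear periphery.

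Mean scanner intensity was 365 to 487 on the NET39 arrays and 414 to 447 on the TMEM214 arrays, and 47.0% to 52.8% of probes on the 6 arrays lay above the detection level. Of 7 MT markers 6 were measured, and all 6 were above that level on all 6 arrays, with a mean log2 intensity of 11.63 to 11.70 in the NET39 line, 11.52 to 11.58 in the TMEM214 line and 7.00 to 7.06 in MBs. The MB marker Pax7, the fibroblast markers Thy1, Fap and Tcf21, and the adipocyte markers Plin1 and Retn were above the level on none of the 6 arrays. Above it on all 6 arrays were 4 of the 6 MB markers and the fibroblast markers Pdgfra and Pdgfrb. So were the adipocyte marker Pparg and the osteoblast markers Alpl and Bglap. Dpt, a fibroblast marker, was above it on 3 NET39 arrays and 0 TMEM214 arrays. The 6 MB markers averaged 8.11 to 8.24 in the NET39 line, 7.998 to 8.062 in the TMEM214 line and 7.58 to 7.61 in control MTs. The dividing cell markers that were measured, Top2a and Cdk1, averaged 7.77 to 7.90, 7.34 to 7.42 and 6.75 to 6.88 in the same order. Both averages were thus a little higher in the NET39 line, and their part in the differences between the lines was not tested. In MBs themselves the MB markers averaged 8.001 to 8.123, no higher than in the NET39 line, so this average did not mark MBs here. Its members also differed in direction. Vcam1 and Notch1 were higher in the NET39 line, while Cdh15 was lower (10.74 to 10.89 against 11.04 to 11.20). In bulk RNA a different number of cells of one kind and a different RNA content per cell cannot be told apart.

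The genes targeted by the hairpins were read first. Plpp7, a muscle-enriched relative of the lipid phosphatases, had log2 intensities of 6.95, 7.05 and 7.20 in the NET39 line and 7.60, 7.45 and 7.55 in the TMEM214 line. The groups did not overlap, and the ratio of −0.47 ± 0.11 (SE) had an adjusted p of 0.00855 but was under the log2 ratio of 0.5 needed for a call. Both lines lay far under the control MTs (8.50 ± 0.10, SD, n = 3), the NET39 line by a log2 ratio of −1.44 and the TMEM214 line by −0.96. Plpp7 was thus low in both lines, and the NET39 line was below all 12 arrays of the other shRNA lines. A second Plpp7 probe, which was dimmer, gave −0.19 (adjusted p = 0.481, probe by probe). Plpp7 lay close to the threshold. It passed when the scanner signal was normalised anew in any of 4 ways (−0.50 without background correction, −0.88 at a background offset of 16), and without NET39 replicate 3 or TMEM214 replicate 2 (−0.54 and −0.51).

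Tmem214 separated the lines clearly. It read 8.24, 8.31 and 8.54 in the NET39 line and 7.23, 7.20 and 7.32 in the TMEM214 line, a 2.17-fold difference (log2 1.11 ± 0.08, adjusted p = 4.0e-08). The NET39 line was close to the control MTs (8.19 ± 0.02), from which it differed by 0.17 (adjusted p = 0.14), and the TMEM214 line lay below every other shRNA array. Of 2 further Tmem214 probes, both dimmer, neither was called (0.37 and 0.24). Of the targets of the other hairpins 1 was called. Wfs1 encodes a protein of calcium balance, known from the endoplasmic reticulum, that the study found at the nuclear envelope in muscle. It read 10.30, 10.28 and 10.04 in the NET39 line and 9.20, 9.21 and 9.56 in the TMEM214 line, and was called (0.89 ± 0.17, adjusted p = 0.00222), with the TMEM214 line −1.03 from control MTs. Tmem38a, which encodes a potassium channel of the sarcoplasmic reticulum, was not called (0.24 ± 0.10, adjusted p = 0.15). Against control MTs all 4 targets were called lower in the TMEM214 line and 1, Plpp7, in the NET39 line.

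**Figure D1:**
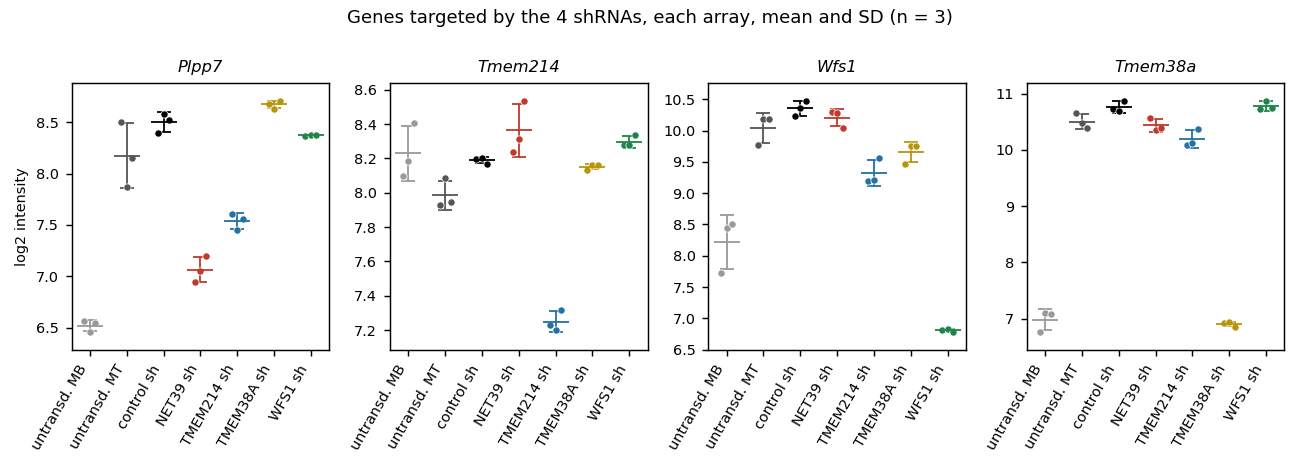
Normalised log2 intensity (vertical axes) of the 4 targeted genes in the 7 groups, with each array as a point and the mean with its SD as a bar (n = 3). Plpp7 is low in both the NET39 and the TMEM214 line, and Tmem214 is low in the TMEM214 line alone among the shRNA lines.

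Of 13574 genes tested, 487 (3.59%) were called between the lines, 209 (1.54%) higher and 278 (2.05%) lower in the NET39 line. The shares of 1.54% and 2.05% stand as the background for the counts in each gene list below. A gene was called where its adjusted p was under 0.05 and its log2 ratio, in either direction, over 0.5. In 485 of the called genes (3.57% of all tested) the 2 groups of 3 arrays did not overlap, against 35.5% of all genes without regard to calls. The typical difference was small, with 95.9% of genes within a log2 ratio of 0.5 and a median SE of 0.08. Ratios above 1 in size were called for 73 genes (0.538%), 29 higher and 44 lower.

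Of the 5 other pairs of KD lines, TMEM214 against WFS1 had 1006 calls (7.41%), NET39 against WFS1 1188 (8.75%), TMEM38A against WFS1 1238 (9.12%), TMEM214 against TMEM38A 1584 (11.7%) and NET39 against TMEM38A 1707 (12.6%). NET39 against TMEM214 had the fewest of the 6 pairs in the deposited matrix and under each of 4 ways of normalising the scanner signal. The pair was picked as the most similar lines of this series, so this rank is not an independent result. Each line alone differed from control MTs more widely. In the NET39 line 903 genes (6.65%) were called against control MTs, 481 higher (3.54%) and 422 lower (3.11%). In the TMEM214 line 938 (6.91%) were called, 519 higher (3.82%) and 419 lower (3.09%). These 2 comparisons share their control arrays. On chromosome 8, 22 of 707 genes were called between the lines (3.11%), and the other autosomes and the X chromosome ranged from 2.27% on chromosome 17 to 6.17% on chromosome 13.

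Progress along myogenesis was summarised as the position of each array between MBs (0%) and untransduced MTs (100%) over the 3384 genes called between these untransduced groups (24.9% of genes tested), which share no array with either line. The NET39 arrays stood at 92.6%, 92.7% and 89.3%, and the TMEM214 arrays at 90.5%, 90.5% and 90.4%. Control MTs stood at 107% ± 0.902 (SD, n = 3). The lines differed by 1.04 percentage points (two-sided exact permutation p = 0.4, the smallest possible being 0.1), so a difference in overall position was not shown. NET39 replicate 3 stood lowest of the 6, and without it the difference was 2.14 points, while it was 0.51 and 0.47 without NET39 replicate 1 or 2. Over the genes not called between the lines it was −0.33.

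**Figure D2:**
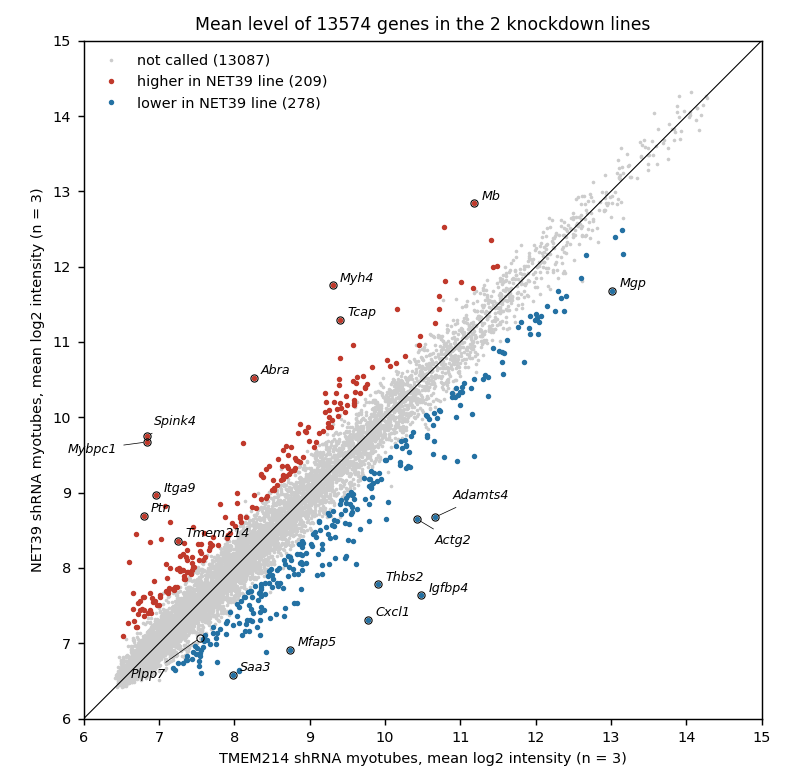
Mean log2 intensity of each of 13574 genes in the TMEM214 line (horizontal axis) and the NET39 line (vertical axis), n = 3 arrays each, with equality as the diagonal. Called genes are red (209, higher in the NET39 line) and blue (278, lower), and the named genes are circled.

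The contractile apparatus held several of the largest differences. Of 6 measured myosin heavy chain genes 3 were higher and 0 lower in the NET39 line (1.54% of all genes were higher), with a median log2 ratio of 0.52 against 0.00 over all genes tested. Myh4, the fastest adult myosin, read 12.09, 12.01 and 11.15 in the NET39 line and 9.39, 9.34 and 9.19 in the TMEM214 line, a 5.45-fold difference (log2 2.45 ± 0.25, adjusted p = 4.7e-06). Control MTs lay between them (10.62 ± 0.21), so that the NET39 line was 1.13 and the TMEM214 line −1.31 from control, and the TMEM38A KD line was lower than both (7.51 ± 0.07). Myh8, the perinatal myosin, read 12.52, 12.49 and 12.57 against 10.74, 10.89 and 10.74 (log2 1.74 ± 0.18, adjusted p = 4.8e-06), and all 3 of its probes were called in this direction. Myh1, another adult fast myosin, was called at 0.56 ± 0.15, but lost its call when any single array other than NET39 replicate 3 was left out (0.48 to 0.70). These myosins are near copies of each other in sequence, so signal shared between their probes was not separated.

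Most calls among the proteins that order the filaments had the same direction. In the list of Z-disc, M-band and titin genes 5 of 27 were higher and 1 lower in the NET39 line, with a median of 0.12. Mybpc1, the slow myosin binding protein C that cross-links thick filaments, read 9.97, 9.69 and 9.35 in the NET39 line and 6.81, 6.81 and 6.89 in the TMEM214 line. It was 7.15-fold higher in the NET39 line (log2 2.84 ± 0.12, adjusted p = 5.1e-11), which stood 0.93 from control MTs while the TMEM214 line stood −1.91 from them. Tcap, the cap of titin at the Z-disc, read 11.23, 11.40 and 11.26 against 9.43, 9.55 and 9.24, a 3.71-fold difference (adjusted p = 6.9e-07). Unlike the myosins, Tcap in the NET39 line was under control MTs (11.77 ± 0.13), though not beyond the threshold (−0.48, adjusted p = 0.0554). Myot and Myom1, which stabilise the Z-disc and the M-band, were higher by 0.69 ± 0.08 and 0.60 ± 0.10. Ankrd2, a stretch-responsive protein of the Z-disc region, was the member that was lower (−0.55 ± 0.13, and −0.53 and −0.50 without NET39 replicate 1 or TMEM214 replicate 3, where it was no longer called).

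The sequences just before the start sites of Myh4 and Mybpc1 are shown because these genes carried the largest sarcomeric differences, together with that of Chrne, whose values follow. Each holds 250 bases upstream of the RefSeq start site (GRCm38.p6), 5′ to 3′ on the gene's strand. Capitals mark CAGCTG, the E-box that muscle bHLH factors can bind, and in Myh4 also a MEF2 site, a CArG box and TATAAA, and in Chrne CCGGAA, the N-box of synaptic genes. Both strands were searched.
Myh4, chr11:67237562-67237811, plus strand: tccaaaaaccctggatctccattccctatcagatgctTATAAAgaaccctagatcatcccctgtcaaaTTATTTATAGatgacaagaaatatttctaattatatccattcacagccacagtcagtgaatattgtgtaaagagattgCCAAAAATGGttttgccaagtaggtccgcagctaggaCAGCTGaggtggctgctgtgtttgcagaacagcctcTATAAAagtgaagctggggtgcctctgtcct
Mybpc1, chr10:88605153-88605402, minus strand: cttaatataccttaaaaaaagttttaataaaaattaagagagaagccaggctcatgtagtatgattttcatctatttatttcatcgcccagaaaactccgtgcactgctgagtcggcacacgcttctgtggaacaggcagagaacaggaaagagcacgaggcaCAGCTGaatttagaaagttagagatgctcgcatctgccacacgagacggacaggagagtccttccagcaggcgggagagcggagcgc
Chrne, chr11:70619195-70619444, minus strand: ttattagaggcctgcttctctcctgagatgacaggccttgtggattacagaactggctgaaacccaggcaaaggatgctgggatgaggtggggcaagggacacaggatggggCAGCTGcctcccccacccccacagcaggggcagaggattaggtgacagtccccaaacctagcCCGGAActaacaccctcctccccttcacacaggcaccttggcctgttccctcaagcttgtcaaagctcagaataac
CAGCTG began 67 bases before the start of Myh4, 87 before that of Mybpc1 and 138 before that of Chrne. In Myh4 the CArG box began at 104 and the MEF2 site at 182, overlapping a TATAAA on the other strand, and TATAAA itself began at 31 and 213. The N-box of Chrne began at 76. Among 32851 promoter windows of this length CAGCTG was found in 13%, CCGGAA in 12%, TATAAA in 12.4%, a CArG box in 1.47% and a MEF2 site in 2.92%. Counting 1 window a gene, a MEF2 site was present in 10 of 150 genes higher in the NET39 line (6.67%), 3 of 225 lower genes (1.33%) and 1.9% of 10925 genes tested. CAGCTG was present in 14.7%, 14.2% and 12.1% of the same sets, CCGGAA in 12.7%, 10.2% and 19.5%, TATAAA in 14.7%, 10.7% and 8.47%, and a CArG box in 2.67%, 0.889% and 1.25%. These are matches of letters, chosen with the results in view and not tested.

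Myoglobin and other cytoplasmic muscle genes were also higher in the NET39 line. Mb, which stores oxygen, read 12.93, 12.92 and 12.68 in the NET39 line and 11.17, 11.12 and 11.27 in the TMEM214 line (3.15-fold, log2 1.66 ± 0.09, adjusted p = 1.2e-09). The NET39 line was level with control MTs (12.88 ± 0.03; −0.04) and the TMEM214 line was the lowest of the 5 shRNA lines. Both Mb probes were called. Ampd1, the muscle AMP deaminase, was higher by 0.82 ± 0.13, so that 3 of 24 muscle metabolism genes were higher and 0 lower (median 0.20). Car3, a muscle carbonic anhydrase, read 7.95, 7.94 and 8.32 against 6.56, 6.60 and 6.65 (adjusted p = 0.00271), the TMEM214 arrays being near the array median of 6.59 and above the detection level on 2 of 3 arrays. Mss51, a mitochondrial protein of fast muscle, was 2.92-fold higher (1.54 ± 0.13).

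Abra, an actin-binding protein of striated muscle that activates serum response factor, read 10.48, 10.39 and 10.70 in the NET39 line and 8.20, 8.26 and 8.31 in the TMEM214 line. The 4.81-fold difference (log2 2.27 ± 0.08, adjusted p = 1.1e-11) had one of the smallest adjusted p-values of the comparison. The TMEM214 line was below all 12 arrays of the other shRNA lines for Abra, as it was for Tcap, Mb, Myh8 and Mybpc1. WFS1 KD MTs exceeded both lines for Abra (11.58 ± 0.08), so the gene varied widely among the lines.

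**Figure D3:**
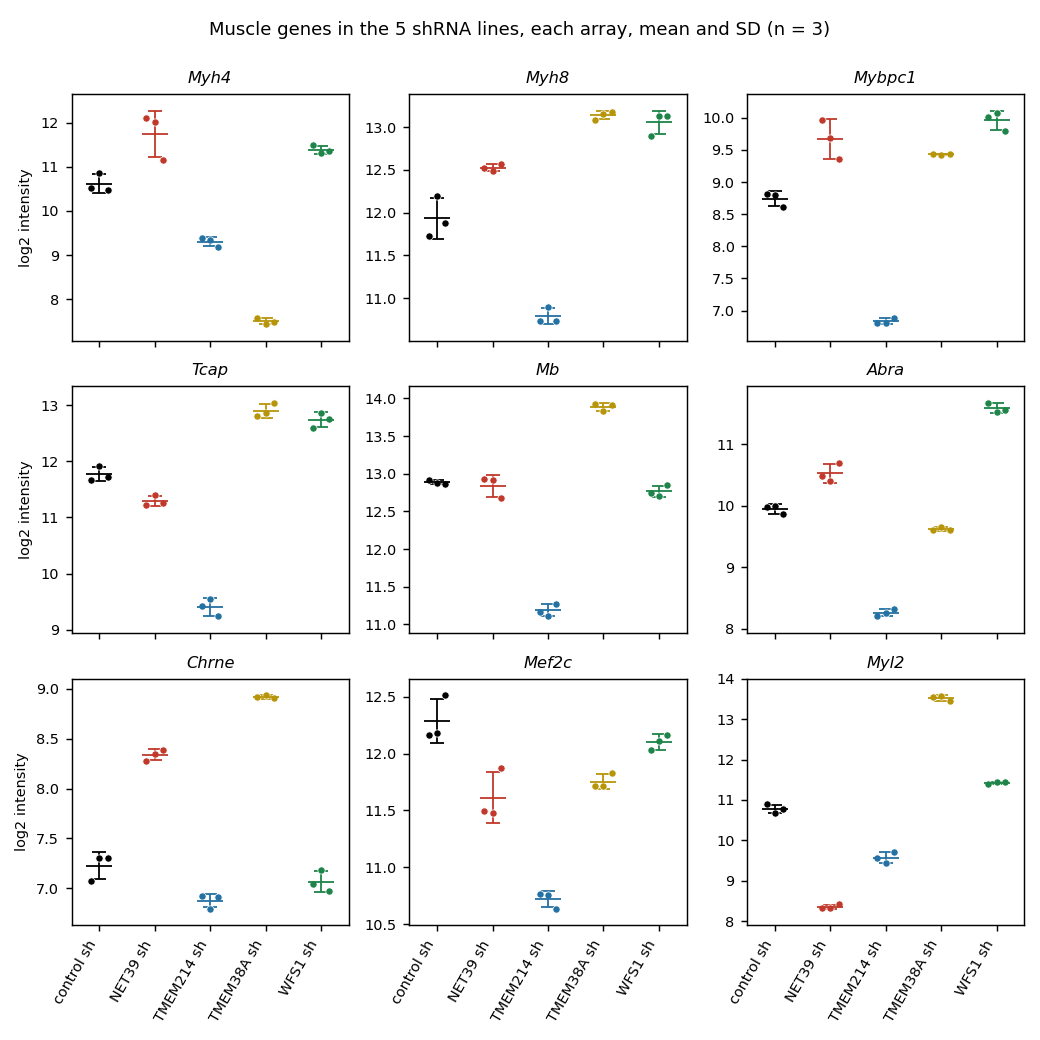
Normalised log2 intensity (vertical axes) of 9 muscle genes in the 5 shRNA lines, with each array as a point and the mean with its SD as a bar (n = 3). For Myh8, Mybpc1, Tcap, Mb, Abra, Chrne and Mef2c the TMEM214 line is the lowest of the 5, and for Myl2 the NET39 line is.

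Calls among calcium handling genes had smaller ratios. Of 25 measured 5 were higher and 0 lower in the NET39 line (median 0.15, with 20 of 25 above 0), against 1.54% of all genes higher. Stac3, an adaptor of excitation-contraction coupling, read 8.21, 8.12 and 8.12 against 7.25, 7.47 and 7.34 (log2 0.80 ± 0.14, adjusted p = 0.00136). Camk2b, a calcium-dependent kinase, was higher by 0.73 ± 0.12, and Asph, whose locus encodes junctin and junctate, by 0.57 ± 0.07. Of 12 Asph probes only this one was called, and the other 11 ran from −0.02 to 0.13, the highest being a probe of the same brightness. With kept probes averaged 1 calcium handling gene was called. The count of 5 fell to 3 without NET39 replicate 1 or without TMEM214 replicate 2, the calls lost being among the smallest ratios, Ryr3 (0.52 ± 0.09) and Srl (0.51 ± 0.10).

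Several muscle genes did not follow this direction. Myl2, the slow regulatory myosin light chain, was lower in the NET39 line, at 8.33, 8.33 and 8.42 against 9.57, 9.45 and 9.70 (log2 −1.21 ± 0.22, adjusted p = 0.00149). Control MTs were at 10.78 ± 0.10, so both lines were under control and the NET39 line more so (−2.42 and −1.21). Among the tropomyosins, Tpm3 was higher (0.72 ± 0.08), in 5 of its 6 probes, with the other at −0.37 and not called. Tpm1 was lower (−0.82 ± 0.21), and its call was lost without NET39 replicate 3, TMEM214 replicate 2 or TMEM214 replicate 3 (−0.76, −0.83 and −0.74).

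None of the 7 troponins was called by limma (3 at an unadjusted p below 0.05), and their log2 ratios ran from −0.03 to 0.36. Acta1, the main sarcomeric actin, had a ratio of −0.19 with a 95% interval of −0.41 to 0.03, and Ckm, the muscle creatine kinase, one of 0.17 (−0.12 to 0.47). Neither interval reached 0.5 in size. No gene of oxidative phosphorylation (34 measured, median 0.12, highest 0.45) or of the cytosolic ribosome (45 measured, median 0.11, highest 0.48) was called by limma in either direction, with 8 and 8 at an unadjusted p below 0.05. A single gene of oxidative phosphorylation passed without NET39 replicate 1 or TMEM214 replicate 3, and a single ribosomal gene without NET39 replicate 1, TMEM214 replicate 1 or TMEM214 replicate 2.

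Smooth muscle genes were lower in the NET39 line where they were called, with 2 of 13 lower and 0 higher (2.05% of all genes were lower) and a median of −0.07. Actg2, the enteric smooth muscle actin, read 8.51, 8.64 and 8.79 in the NET39 line and 10.41, 10.45 and 10.41 in the TMEM214 line, a 3.43-fold difference (log2 −1.78 ± 0.12, adjusted p = 3.3e-08). The NET39 line was near control MTs (8.38 ± 0.06) and the TMEM214 line between these and MBs (11.07 ± 0.06). Cald1, caldesmon, which restrains actomyosin in smooth muscle and non-muscle cells, read 8.13, 8.34 and 8.01 against 9.58, 9.69 and 9.16 (log2 −1.32 ± 0.22, adjusted p = 8.3e-04), while 3 dimmer Cald1 probes were not called (−0.24 to −0.05).

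At the neuromuscular junction 2 genes differed in opposite directions. Chrne, the adult subunit of the acetylcholine receptor, read 8.28, 8.34 and 8.39 in the NET39 line and 6.92, 6.80 and 6.91 in the TMEM214 line (2.75-fold, log2 1.46 ± 0.07, adjusted p = 3.1e-10). It was higher than in control MTs in the NET39 line (1.11) and not in the TMEM214 line (−0.35), while the TMEM38A KD line was higher still (8.92 ± 0.02). Agrn, agrin, which clusters these receptors, read 8.80, 8.78 and 8.95 against 9.84, 9.81 and 9.71 and was lower in the NET39 line (−0.94 ± 0.13, adjusted p = 1.3e-04). In all 1 of 16 junction genes was higher and 1 lower (median 0.02). The higher count was 2 when NET39 replicate 2, NET39 replicate 3, TMEM214 replicate 1 or TMEM214 replicate 3 was left out. Egr3, an immediate early factor needed for muscle spindles, was 2.6-fold higher in the NET39 line, at 11.01, 10.84 and 11.02 against 9.62, 9.43 and 9.69.

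Among transcription factors of myogenesis 2 of 22 were higher and 0 lower. Mef2c, which activates sarcomeric genes, read 11.49, 11.47 and 11.87 in the NET39 line and 10.76, 10.75 and 10.64 in the TMEM214 line (log2 0.90 ± 0.11, adjusted p = 2.6e-05), and 4 of its 5 probes were called. Both lines were under control MTs, by −0.67 and −1.57. Tead1 was the other (0.52 ± 0.15), and was called only with all arrays or without TMEM214 replicate 3 (0.44 to 0.60 over the 6 fits that each left out 1 array). A factor was also lower without NET39 replicate 3. Myog, the factor that starts terminal differentiation, was not called (−0.29 ± 0.16, 95% interval −0.62 to 0.05).

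Of 21 inhibitors of myogenesis 1 was higher, 1 lower and 19 were not called (median −0.06). Id3, which sequesters bHLH partners, was higher in the NET39 line (7.97, 8.06 and 7.56 against 7.15, 7.10 and 7.08, log2 0.76 ± 0.12, adjusted p = 6.1e-04). Bhlhe40, a bHLH repressor, was lower, at 10.74, 10.72 and 10.73 against 11.89, 11.92 and 11.74 (log2 −1.12 ± 0.11, adjusted p = 2.0e-06), with the NET39 line below and the TMEM214 line above all 12 other shRNA arrays. Outside this list, Cebpb, an adipogenic factor that also holds satellite cells undifferentiated, was 2.15-fold lower in the NET39 line (9.89, 10.13 and 10.13 against 11.29, 11.19 and 10.97), where it stood −1.06 from control MTs.

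Ratios of cell cycle genes were small and mostly above 0. Of 43 DNA replication genes 37 had a ratio above 0 and 3 were called, all higher, and of 42 mitosis genes 40 had a ratio above 0 and 3 were called, all higher (medians 0.16 and 0.18). Over all 13574 genes tested 6866 had a ratio above 0 and 1.54% were called higher. Ccnd1, cyclin D1, which drives entry into the cycle, read 9.39, 9.55 and 9.74 in the NET39 line and 8.78, 8.65 and 8.51 in the TMEM214 line (log2 0.91 ± 0.15, adjusted p = 6.9e-04), and both lines were well above control MTs (7.30 ± 0.03). Mcm5, part of the replicative helicase, was higher by 0.57 ± 0.09, Lig1, a DNA ligase, by 0.77 ± 0.16, and Top2a, which untangles chromosomes, by 0.60 ± 0.09. Uhrf1, the remaining replication call, lost its call when any array was left out (0.52 to 0.56). The mitosis count of 3 fell to 1 without TMEM214 replicate 2 and to 2 without NET39 replicate 1, NET39 replicate 3 or TMEM214 replicate 3. Lmnb1, lamin B1, which is highest in MBs (10.20 ± 0.09), read 7.92, 8.03 and 8.06 against 7.02, 7.25 and 7.14 (0.86 ± 0.12). A dimmer Lmnb1 probe was not called (−0.01). Gadd45b, a stress-induced growth arrest gene, was lower in the NET39 line, at 7.34, 7.57 and 7.51 against 8.84, 8.76 and 8.41 (−1.20 ± 0.19).

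Chemokines and cytokines that were called were mostly lower in the NET39 line. Of 29 measured 7 were lower and 2 higher in the NET39 line, with a median of −0.11. Over all genes 2.05% were lower and 1.54% higher. Cxcl1, a neutrophil attractant and one of the study's candidate genes, read 7.14, 7.30 and 7.48 in the NET39 line and 9.82, 9.73 and 9.76 in the TMEM214 line, 5.51-fold lower in the NET39 line (log2 −2.46 ± 0.10, adjusted p = 5.1e-11). Control MTs were at 6.64 ± 0.06 and the WFS1 KD line was higher still (10.80 ± 0.04), so Cxcl1 was 0.67 from control in the NET39 line and 3.13 in the TMEM214 line.

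Ccl2, a monocyte attractant, read 6.64, 6.65 and 6.60 against 8.13, 7.95 and 8.08 (2.69-fold lower, adjusted p = 3.1e-10), and Saa3, an acute phase protein, 6.59, 6.62 and 6.53 against 7.97, 7.91 and 8.07 (2.64-fold lower, adjusted p = 5.1e-11). For both, the NET39 line was as low as control MTs (6.49 ± 0.05 and 6.57 ± 0.02) and above the detection level on 2 of 3 arrays. The TMEM214 line shared the high level of Ccl2 with the WFS1 KD line (8.10 ± 0.16) and stood between control and WFS1 KD (10.13 ± 0.12) for Saa3. Cxcl14 (−0.95 ± 0.06) and Cxcl12, a homing signal for muscle stem cells (−0.74 ± 0.18), were lower too, while Ccl7 (−0.91 ± 0.22) lost its call without TMEM214 replicate 3 (−0.79, adjusted p = 0.0705). Ccl8, also among the lower members, lost its call when any array was left out (−0.52 to −0.48). The higher members, Il15 (0.61 ± 0.16) and Cx3cl1 (0.52 ± 0.07), both lost their call without NET39 replicate 3 or TMEM214 replicate 1, and Il15 also without NET39 replicate 1 or TMEM214 replicate 2 (0.54 to 0.66 for Il15 and 0.48 to 0.57 for Cx3cl1 over the fits that left out 1 array).

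The Cxcl1 promoter window is shown because this gene had the largest chemokine difference. Capitals mark a kappaB site, the motif of NF-kappaB.
Cxcl1, chr5:90890995-90891244, plus strand: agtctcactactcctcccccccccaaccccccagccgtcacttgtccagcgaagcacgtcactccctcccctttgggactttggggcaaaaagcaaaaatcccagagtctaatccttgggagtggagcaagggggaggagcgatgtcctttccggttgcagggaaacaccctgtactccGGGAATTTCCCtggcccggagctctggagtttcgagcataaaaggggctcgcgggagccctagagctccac
It matched on both strands, in overlapping runs that began 71 and 70 bases before the RefSeq start site (GRCm38.p6). The window also held CCGGAA on the other strand at 101 bases, which is not in capitals. A kappaB site was found in 3.9% of all windows, in 18 of 225 genes lower in the NET39 line (8%), in 6 of 150 higher genes (4%) and in 4.18% of genes tested, as a description without a test. Irf1, an interferon-response factor, was lower in the NET39 line (9.11, 9.08 and 9.12 against 9.76, 9.86 and 9.80, log2 −0.71 ± 0.08, adjusted p = 2.0e-05). Of 38 genes of interferon response and antigen presentation 3 were lower and 0 higher (median 0.00), against 2.05% of all genes lower.

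**Figure D4:**
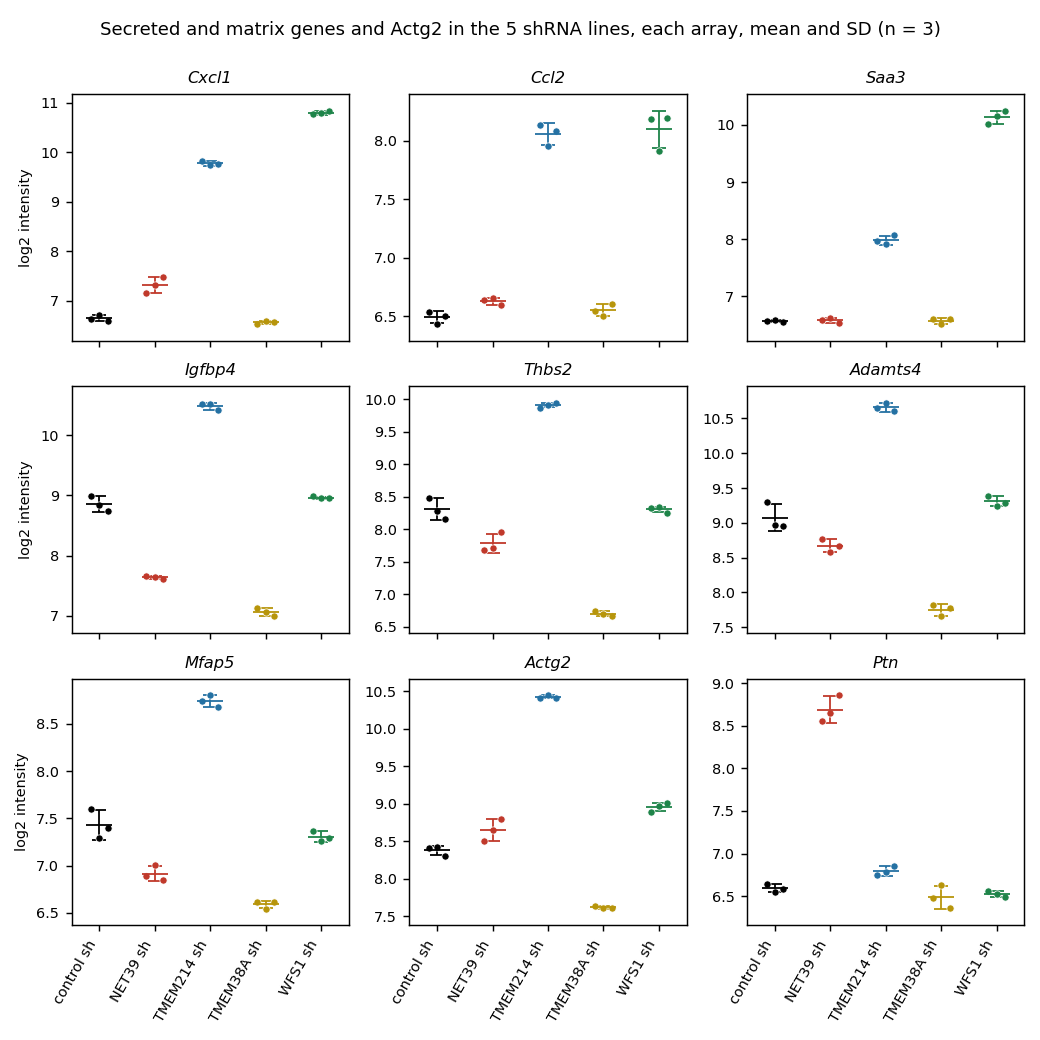
Normalised log2 intensity (vertical axes) of 8 secreted or matrix genes and of Actg2 in the 5 shRNA lines, with each array as a point and the mean with its SD as a bar (n = 3). The TMEM214 line is the highest of the 5 for Igfbp4, Thbs2, Adamts4, Mfap5 and Actg2, and the NET39 line is for Ptn.

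Of 44 matrix glycoprotein and basement membrane genes 10 were lower and 3 higher, around a median of −0.01, so most members did not differ by the call. Thbs2, thrombospondin 2, read 7.68, 7.71 and 7.95 in the NET39 line and 9.87, 9.91 and 9.94 in the TMEM214 line (4.36-fold lower, log2 −2.13 ± 0.15, adjusted p = 6.0e-08). Mfap5, a microfibril protein, read 6.89, 7.00 and 6.85 against 8.74, 8.81 and 8.68 (log2 −1.83 ± 0.15, adjusted p = 4.3e-07). In both genes control MTs lay between the lines (8.31 ± 0.17 and 7.43 ± 0.15).

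Lamb3, a laminin chain, was lower in the NET39 line by the same measure (−1.20 ± 0.12), where it stood −1.09 from control MTs while the TMEM214 line stood 0.11. Ccn4, a matricellular Wnt target (−0.98 ± 0.19), Igfbp7 (−0.99 ± 0.22) and Fbln2, a fibulin (−0.88 ± 0.20), were also lower. Mgp, an inhibitor of calcification, read 11.67, 11.66 and 11.71 against 12.92, 13.02 and 13.11 (−1.34 ± 0.33, adjusted p = 0.014), and without TMEM214 replicate 3 its ratio was −1.29 with an adjusted p of 0.0505. Lama2, the laminin chain of mature muscle basement membrane, was higher in the NET39 line, at 8.24, 8.20 and 8.30 against 7.34, 7.39 and 7.39 (log2 0.87 ± 0.08, adjusted p = 1.9e-06), where it was near control MTs (8.44 ± 0.14). Ltbp1, which stores latent TGF-beta, was higher as well (0.72 ± 0.14).

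Of 35 matrix proteases and inhibitors 7 were lower and 0 higher in the NET39 line (median −0.07). Over all genes 2.05% were lower and 1.54% higher. Adamts4, an aggrecanase, read 8.77, 8.58 and 8.67 in the NET39 line and 10.65, 10.72 and 10.60 in the TMEM214 line (3.97-fold lower, log2 −1.99 ± 0.27, adjusted p = 1.1e-04). Htra1, a secreted serine protease (−1.17 ± 0.09), Timp3, a metalloproteinase inhibitor (−1.12 ± 0.20), and Mmp14, a membrane metalloproteinase (−0.67 ± 0.13), were lower too. Timp1, another such inhibitor, was called (−0.73 ± 0.21) but lost its call when any array was left out. The other 28 were not called, 10 of the 35 had ratios above 0, and a single member was called higher without NET39 replicate 1 or TMEM214 replicate 3.

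Among collagens 3 of 32 were lower and 1 higher (median −0.06), and 2 were higher without NET39 replicate 3 or TMEM214 replicate 1. Over all genes 2.05% were lower and 1.54% higher. Col8a2 was lower (7.47, 7.25 and 7.30 against 8.41, 8.29 and 8.73, −1.14 ± 0.13) and Col5a1 was lower (−0.72 ± 0.16), while Col22a1, the collagen of myotendinous junctions, was higher (7.48, 7.44 and 7.46 against 6.67, 6.66 and 6.63, 0.81 ± 0.14, adjusted p = 8.0e-04). Of 22 proteoglycan genes 2 were higher in the NET39 line, Ogn, osteoglycin, and Dcn, decorin, and 1 was lower (median −0.03). The lower one, Has2 (−0.53), was called in 2 of the 6 fits that left out 1 array. Ogn read 12.46, 12.31 and 12.30 against 11.51, 11.37 and 11.33 (0.95 ± 0.16) and Dcn 10.47, 10.39 and 10.32 against 9.70, 9.76 and 9.74 (0.66 ± 0.12), and both lines were above control MTs for Dcn (2.50 and 1.84). Among integrins, Itga9, the receptor chain for tenascin and osteopontin, read 8.95, 9.02 and 8.91 against 6.96, 6.95 and 6.96 (4.01-fold higher, adjusted p = 1.9e-11), and Itga11, the chain of a collagen receptor, 7.46, 7.60 and 7.54 against 8.91, 8.86 and 8.74 (2.47-fold lower, adjusted p = 2.0e-05). The 6 fibroblast markers averaged 6.93 to 6.96 in the NET39 line and 6.90 to 6.93 in the TMEM214 line, with 3 of the 6 above the detection level on no array. In the longer lists none of 11 fibroblast markers and none of 8 osteoblast markers was called by limma (4 and 4 at an unadjusted p below 0.05). Of 8 adipocyte markers 1, Cebpb, was lower and none had a ratio above 0 (median −0.04), with Pparg at −0.39 ± 0.05.

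Insulin-like growth factor binding proteins went both ways. Igfbp4 had the largest ratio of the comparison in size among the genes lower in the NET39 line, at 7.67, 7.64 and 7.61 against 10.51, 10.51 and 10.41 (7.16-fold, log2 −2.84 ± 0.21, adjusted p = 1.4e-07), and both of its probes were called. Control MTs were between the lines (8.86 ± 0.13). Igfbp3 was higher in the NET39 line (7.56, 7.61 and 7.69 against 6.79, 6.80 and 6.82, 0.82 ± 0.06), the TMEM214 line being near control MTs (6.88 ± 0.03). Eif4ebp1, the translation repressor that mTOR phosphorylates, was lower (−0.77 ± 0.14, adjusted p = 0.00183).

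Ptn, pleiotrophin, a heparin-binding growth factor and a candidate gene of the study, was above all other shRNA arrays in the NET39 line. It read 8.55, 8.65 and 8.86 there, 6.75, 6.78 and 6.85 in the TMEM214 line and 6.59 ± 0.05 in control MTs, a 3.72-fold difference between the lines (log2 1.89 ± 0.14, adjusted p = 7.4e-08). MBs stood at 7.94 ± 0.40. Vcam1, an adhesion molecule of MBs, read 9.31, 9.15 and 9.23 against 8.71, 8.49 and 8.72 (0.60 ± 0.13, adjusted p = 0.00669), above control MTs in both lines (2.08 and 1.49). Msc, musculin, a repressor of the MyoD family, did not reach the ratio needed (0.40 ± 0.06, adjusted p = 3.9e-04).

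The other candidates, Nid1, Bdnf, Efna5 and Ddr2, were not called between the lines. Their 95% intervals were −0.28 to 0.24 for Nid1, a basement membrane linker, −0.18 to 0.23 for Bdnf, a neurotrophin, −0.20 to 0.36 for Efna5, an ephrin, and −0.19 to 0.15 for Ddr2, a collagen receptor. Nid1 read 7.84, 7.56 and 7.51 in the NET39 line and 7.53, 7.61 and 7.82 in the TMEM214 line, with groups that overlapped, and was above control MTs by 0.54 and 0.56. Bdnf was above control by 0.59 and 0.57. The candidates were chosen by the study on these arrays, so their levels against control are not independent evidence.

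In TGF-beta and BMP signalling 5 of 30 genes were lower and 1 higher in the NET39 line (median −0.13). Over all genes 2.05% were lower and 1.54% higher. Tgfbr1, the type I receptor, was higher (10.11, 9.75 and 9.76 against 8.98, 8.90 and 9.05, 0.90 ± 0.17, adjusted p = 0.0017), and Bmp1, a protease that processes procollagen, was lower (−0.66 ± 0.13). The count of 5 was 2 or 3 in each of the 6 fits that left out 1 array. Tgfbr2, the type II receptor (−0.73 ± 0.18), was no longer called without NET39 replicate 2, NET39 replicate 3 or TMEM214 replicate 3. In the Wnt list 3 of 30 were lower and 0 higher (median −0.02), against 2.05% of all genes lower. Nkd2, an inhibitor of Wnt signalling, read 6.92, 6.88 and 6.86 against 8.37, 8.47 and 8.42 (2.89-fold lower, adjusted p = 3.2e-06), and Porcn, which acylates Wnt ligands, 11.24, 11.34 and 11.22 against 12.02, 12.10 and 12.02 (−0.78 ± 0.09). Dusp6, a phosphatase induced by ERK signalling, was higher in the NET39 line (10.26, 10.27 and 10.34 against 9.46, 9.49 and 9.51, 0.80 ± 0.11), where it was 0.76 from control MTs.

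In the unfolded protein response list 4 of 33 genes were lower and 2 higher (median −0.01). The lower ones were Chac1, Fgf21, Atf5 and Asns, and Asns (−0.69 ± 0.19) lost its call when any array was left out. The higher ones were Wfs1 and Pdia3, a protein disulfide isomerase (0.85 ± 0.20, no longer called without TMEM214 replicate 1). The stress factors Atf4 (−0.44 ± 0.19) and Atf3 (−0.10 ± 0.05) were not called. Chac1, which degrades glutathione, read 9.67, 9.71 and 9.67 against 10.68, 10.60 and 10.67 (−0.97 ± 0.11, adjusted p = 2.4e-05). Fgf21, a stress hormone made by muscle, read 9.72, 9.78 and 9.79 against 10.61, 10.59 and 10.49 (−0.80 ± 0.10), and Atf5, a stress transcription factor, was lower by the same contrast (−0.74 ± 0.12). Nupr1, another stress-induced gene, read 9.41, 9.51 and 9.55 against 11.21, 11.09 and 11.25 (3.24-fold lower, adjusted p = 1.8e-07), with the NET39 line below and the TMEM214 line above all 12 other shRNA arrays. Klf2, a Krüppel-like factor, showed that pattern too (7.94, 8.04 and 8.14 against 9.08, 9.25 and 9.17, −1.12 ± 0.11). Tfrc, the transferrin receptor that imports iron, read 11.69, 11.20 and 11.43 against 10.16, 9.87 and 10.43 (2.44-fold higher, adjusted p = 7.3e-04), and Slc40a1, the iron exporter ferroportin, was lower (−0.59 ± 0.10).

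Of 48 replication-dependent histone genes 3 were higher in the NET39 line, all of them H2A genes, and 5 were lower, all of them H4 genes (median −0.13). The other 40 were not called, among them the H2A gene H2ac18 at −0.52 ± 0.19. H4c1 read 9.13, 9.42 and 9.42 against 10.34, 10.40 and 10.11 (−0.96 ± 0.18, adjusted p = 0.00193). H2ac22 read 10.50, 10.89 and 10.59 against 10.11, 9.94 and 9.43 (0.83 ± 0.20) but lost its call without NET39 replicate 2 (0.72), and without TMEM214 replicate 3 no H2A gene was called (0.63 for H2ac22). Genes of one histone family are near-identical, and signal shared between their probes was not separated.

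Some of the largest differences lay in genes outside these lists. Spink4, a secreted peptide of the Kazal inhibitor family, had the highest ratio of all genes tested, at 9.82, 9.70 and 9.74 in the NET39 line and 6.87, 6.79 and 6.86 in the TMEM214 line (7.54-fold, log2 2.92 ± 0.14, adjusted p = 5.7e-10), on either side of control MTs (8.18 ± 0.16). Rnase6, a secreted ribonuclease, read 8.49, 8.44 and 8.40 against 6.71, 6.69 and 6.67 (3.38-fold higher), with control MTs at 8.30 ± 0.25. Tril, an accessory protein of Toll-like receptors, was also above all other shRNA arrays in the NET39 line, at 8.64, 8.49 and 8.71 against 7.22, 7.12 and 7.08 and 6.72 ± 0.04 in control MTs. Hsd11b1, which reactivates glucocorticoid, was 2.53-fold lower in the NET39 line (8.09, 8.12 and 8.16 against 9.47, 9.29 and 9.64).

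Some broadly expressed genes were low chiefly in the NET39 line. Psme3ip1, which binds a proteasome activator, read 8.04, 7.99 and 8.14 there and 9.64, 9.67 and 9.54 in the TMEM214 line (2.95-fold lower, adjusted p = 3.4e-07), and control, TMEM38A KD and WFS1 KD MTs stood at 9.27 ± 0.20, 9.70 ± 0.03 and 9.28 ± 0.02. Dpy30, a subunit of histone H3K4 methyltransferases, read 8.64, 8.68 and 8.64 against 10.03, 9.94 and 10.06 (2.56-fold lower, adjusted p = 2.6e-08), with the other lines at 9.86 ± 0.19, 9.86 ± 0.14 and 9.70 ± 0.08. For each of these genes 2 probes were called, and another Psme3ip1 probe near background was not (0.02). Ctdsp2, a phosphatase of the RNA polymerase II tail, read 9.47, 9.47 and 9.46 against 10.82, 10.70 and 10.81 (2.48-fold lower), though the TMEM38A KD line was nearly as low (9.54 ± 0.02).

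Across all calls, each line could be placed against the 12 arrays of the other 4 shRNA lines. Of the 209 genes higher in the NET39 line, that line exceeded all 12 in 88 and the TMEM214 line was below all 12 in 88. Of the 278 genes lower in the NET39 line, that line was below all 12 in 102 and the TMEM214 line above all 12 in 135. Among all 13574 genes the NET39 line was above all 12 in 553 and below in 612, and the TMEM214 line in 535 and 451. For each line the 12 include the arrays of the other line of this comparison. The groups of these lines did not overlap in 208 of the 209 higher and 277 of the 278 lower genes. Selection had thus already met part of the condition, and the counts among called genes cannot be weighed against those among all genes.

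Against myogenesis in the untransduced cells, 95 of the 209 higher genes (45.5%) rose and 45 (21.5%) fell from MBs to MTs, where 11.7% of all genes tested rose and 13.2% fell. Of the 278 lower genes 79 (28.4%) rose and 69 (24.8%) fell. In both sets both shares were above those of all genes. The genes tested were not matched to the called ones in level or variability, so their shares are no like background. Across all 13574 genes the ratio between the lines and the ratio of myogenesis had a Pearson correlation of 0.04 and a Spearman correlation of 0.02, as a description, since genes are not independent replicates.

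**Figure D5:**
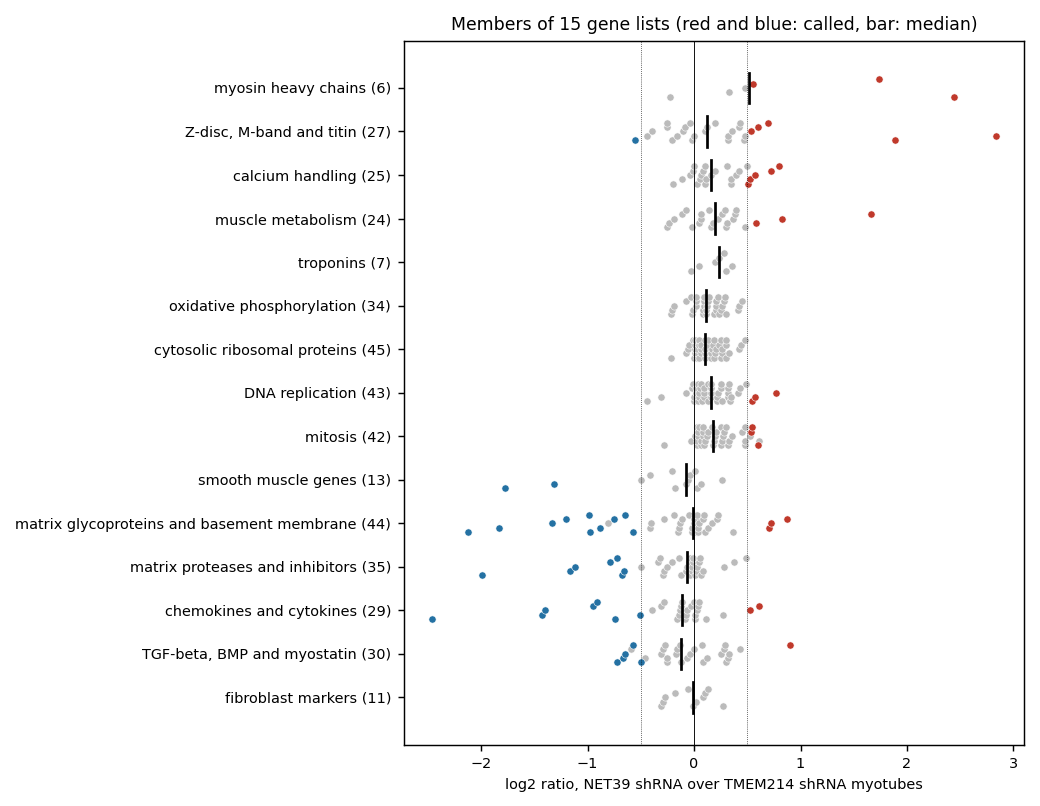
Log2 ratio of NET39 over TMEM214 shRNA MTs (horizontal axis) for each measured member of 15 gene lists, with the number of members in parentheses and the median as a bar. Red and blue points are called, grey points are not, and dotted lines mark 0.5 in size. Myosin heavy chain calls lie to the right, and calls among smooth muscle genes and matrix proteases to the left.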

How the data were processed

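RNA from 21 C2C12 cultures was hybridised to Illumina MouseWG-6 arrays, 3 in each of 7 labelled groups. The authors deposited scanner signal as intensity that was not normalized, with no detection p-values or control probes. Its header names the control line as empty, and the study's array figures describe an empty-vector control, where the labels say non-target shRNA. The deposited matrix holds log2 values, which the authors quantile-normalized per the methods. Their background step and the version of limma they used are not given in the sources used here, and neither are slides or scan dates. Every array of the matrix has a median of 6.59.

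Values of the matrix were analysed as deposited (R 4.3.3, limma 3.58.1). An array's detection level was set from its scanner signals on the log2 scale. Their mode was taken (density bandwidth 0.01), and the spread below it was multiplied by the normal quantile of a detection p of 0.05 and added. Probes had to exceed this level on 3 or more arrays, which left 27840 of 45281. Of those kept, 22708 carried a single gene symbol, brought up to date by Entrez ID with RefSeq (GRCm38.p6), and the brightest represented each of 13574 genes. In all 10378 probes had no symbol and 18 had several. No gene had probes called in opposite directions among the 5743 with more than 1 kept probe, and 91 of the 270 called genes among these had another probe called the same way. All 21 arrays entered 1 model in limma (lmFit and eBayes, a coefficient for each group), and p-values were adjusted by Benjamini-Hochberg over all genes. Calls required an adjusted p under 0.05 together with an absolute log2 ratio over 0.5. Errors after a ratio are its SE, those after a group mean are SDs over 3 arrays, and intervals are 95%. Folds are back-transformed log2 ratios and understate changes of dim genes. The number of arrays limits the precision.

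The rule for named genes took the 4 targets, the 8 candidates, the 20 largest rises and 20 largest falls that had a gene symbol and non-overlapping groups, and members of 54 lists (3 listed names were not matched), from which examples are given. The comparison, its members, the lists and the motifs were chosen with earlier results of these data known. Promoter windows are RefSeq sequences and were matched by symbol. Alternatives changed the starting values, the filter, the probes, the arrays fitted, array weights, a replicate block and the fold threshold, or left out 1 array.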

Additional observations from a re-analysis of the deposited data

How the results depend on the processing

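The count of 487 calls (209 higher, 278 lower) depended most on the background step and the fold threshold. Starting from scanner signal with normexp and quantile normalization gave 734 (316 and 418) at an offset of 50 and 1008 (463 and 545) at 16, and these held 487 and 482 of the main calls. Median scaling gave 492 calls but held only 309 of them. Averaging probes gave 331 (138 and 193). With no fold threshold there were 1284 (594 and 690), and with a log2 ratio above 1 there were 73 (29 and 44). Leaving out 1 array gave 418 to 486 calls, 181 to 211 higher and 237 to 275 lower. The position between MBs and MTs differed by 1.04 points, reversed to −0.33 over genes not called between the lines, and ranged from 0.47 to 2.14 with 1 array left out. Under median scaling the NET39 line stood at 59.0%, the TMEM214 line at 58.7% and control MTs at 79.2% ± 7.33 (SD). The positions themselves thus depended on the normalization.

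Of 168 called genes covered by the rule for named genes, 115 were called in all 6 fits that left out 1 array and 0 changed sign. Of 113 genes named here and tracked, 22 lost their call under median scaling (Ankrd2, Asns, Bmp1, Cx3cl1, Dcn, Dusp6, Igfbp7, Irf1, Ltbp1, Myh1, Myom1, Ogn, Pdia3, Porcn, Slc40a1, Srl, Tead1, Tgfbr1, Tgfbr2, Timp1, Tpm1 and Vcam1), and 23 when kept probes were averaged (Asns, Asph, Bmp1, Cald1, Camk2b, Col8a2, Cxcl12, Dcn, Il15, Irf1, Lama2, Lig1, Lmnb1, Ltbp1, Mmp14, Myh1, Ryr3, Srl, Tead1, Tgfbr1, Tgfbr2, Top2a and Vcam1). The cause was not tested. Candidates with ratios near 0 changed sign, none of them called. Nid1 gave 0.0058 under median scaling and 0.032 with array weights, and leaving out 1 array gave −0.12 to 0.065 for Nid1, −0.017 to 0.044 for Bdnf and −0.036 to 0.0017 for Ddr2. Same-numbered arrays of the lines deviated with correlations of −0.19, 0.16 and −0.06, and differently numbered ones with −0.22 to 0.29. The main fit therefore used no pairing. Deviations from a mean of 3 arrays are tied to each other, so these values cannot show whether arrays shared a batch. With a replicate block 500 genes were called, 213 higher and 287 lower, and 486 of the main calls were held.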
